A study of Mus musculus with 8 samples.

Results

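Testes of mice without Terc were compared with wild type testes on Affymetrix MG_U74Av2 arrays, which measure transcripts with sets of short probes called probe sets. The members were chosen by title, as the arrays labelled Terc knockout with Ku86 present and the arrays labelled wild type for both genes, 4 of the 8 arrays of the series. The Terc knockout group held 2 arrays, from Ku86(+/+);G3-Terc(-/-) mice, where G3 is the usual notation for the third generation bred without Terc. The wild type group held 2 arrays, from Ku86(+/+);Terc(+/+) mice. By label both groups thus carried Ku86, the DNA end-binding protein that the gene Xrcc5 encodes. The other 4 arrays, 2 labelled double knockout (Ku86(-/-);G3-Terc(-/-)) and 2 labelled Ku86 knockout (Ku86(-/-);Terc(+/+)), gave the same loss of Terc in mice without Ku86, and the scanner's record calls double knockout replicate 1 a pool. The labels name neither strain nor age, and give the source as testis, while the scanner's text records call every one of the samples germ cells. The labels do not say that the arrays of a group came from separate animals, and the records give each array its own code without saying what it stands for, so the tests measure the spread between arrays, which may be technical.

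Telomerase is a reverse transcriptase that adds telomere repeats to chromosome ends, and Terc is the RNA that holds its template while Tert is its protein. In mice the loss of Terc leaves telomeres long at first, and they shorten over successive generations bred without it. The testis is among the tissues in which late generations are known to be affected, through loss of germ cells from the seminiferous tubules, where Sertoli cells nurse the germ cells, peritubular muscle cells surround each tubule, and Leydig cells between tubules make testosterone.

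Median signal per array, in arbitrary units of brightness, was 64.0 and 73.2 in Terc knockout testis and 49.7 and 59.4 in wild type testis. Terc had 0 probe sets, so the genotype could not be checked from its own transcript. Xrcc5, present in both groups by label, read 71.2 and 11.1 in Terc knockout testis and 46.3 and 75.6 in wild type testis, and the groups overlapped. Xrcc5 was brighter on the double knockout arrays (259.0 and 423.3) and the Ku86 knockout arrays (419.9 and 458.8) than on any of these, against their label. The presence or absence of Ku86 is therefore given by label only, in every group. Late germ cell transcripts were among the brightest in both groups. Prm1, a protamine that packs sperm DNA, read 18011.8 and 18506.5 in Terc knockout testis and 15151.5 and 17232.2 in wild type testis, and 1 of 6 measured epididymis genes lay above the filter on dim probe sets. Terc knockout replicate 1 correlated across probe sets more closely with wild type replicate 2 (0.959) than with Terc knockout replicate 2 (0.935), which was as close to wild type replicate 2 (0.937). By its scanner record, wild type replicate 1 was a repeat of an array with high background, hybridised on a chip lot and a scan day of its own, whereas the other 3 arrays shared a day and a lot. For that reason results are also given without it, a setting that in this comparison equals the value within the shared scan day.

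The genes that passed the test were Hus1, upwards, and Pla2g12a, downwards. With limma's moderated test and Benjamini-Hochberg adjustment, 2 of 7282 tested probe sets, 0.0275%, had an adjusted p under 0.05. At an unadjusted p under 0.05, a description and not a call, 357 probe sets (4.9%) were higher and 157 (2.16%) were lower in Terc knockout testis. Both Terc knockout arrays lay above both wild type arrays for 1854 probe sets (25.5%) and below both for 891 (12.2%). The typical probe set differed by 0.322 on the log2 scale between the Terc knockout arrays and by 0.344 between the wild type arrays (medians of absolute differences), against 0.271 between the group means. The lean towards higher values depended on the scaling. The median probe set lay 0.107 higher in Terc knockout testis, and the split at an unadjusted p under 0.05 was 173 higher and 194 lower after quantile normalization and 176 higher and 382 lower after centring each array on its median. Medians of gene groups below should be read against 0.09, the median over all tested genes.

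Hus1 encodes a subunit of the checkpoint clamp that is loaded onto damaged DNA and activates the damage kinase Atr. Its signal was 214.4 and 291.5 in Terc knockout testis and 14.3 and 13.7 in wild type testis. Both Terc knockout arrays were clear of both wild type arrays, which stood just above the floor of 11.8 that was set on dim signals. The means were 252.9 ± 54.5 in Terc knockout testis and 14.0 ± 0.424 in wild type testis (SD, n = 2 each). Hus1 rose by 4.16 ± 0.552 on the log2 scale (SE; limma adjusted p = 0.0488), and by 4.19 without wild type replicate 1. Its size depends on the floor, because the wild type values were so dim: with the floor raised to 38.1 the difference was 2.71. The result rests on probe set 92504_at. It passed the filter on dim signals (a mean over all arrays, on the log2 scale, at the level of 38.1) only through the Terc knockout arrays. The other 6 arrays had an arithmetic mean of 32.5. The other Hus1 probe sets were below the filter on dim signals. Probe set 92503_at read 34.4 and 26.0 in Terc knockout testis and 18.8 and 46.5 in wild type testis, and 92505_g_at read 23.3 and 35.5 in Terc knockout testis and 7.8 and 30.5 in wild type testis. In both of these the groups overlapped. Without Ku86 the called probe set read 73.6 and 27.9 in double knockout testis and 27.7 and 37.9 in Ku86 knockout testis, which also overlapped.

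Pla2g12a encodes a secreted phospholipase A2, an enzyme that frees fatty acids from membrane lipids. Its signal was 297.1 and 567.6 in Terc knockout testis and 1780.6 and 2660.6 in wild type testis. Every Terc knockout value was below every wild type value, and all 4 were far above the floor. The means were 432.4 ± 191.0 in Terc knockout testis and 2221 ± 622.0 in wild type testis (SD, n = 2 each). Pla2g12a fell by 2.41 ± 0.338 on the log2 scale (SE; limma adjusted p = 0.0488), which makes wild type 5.3 times as bright, and the difference was -2.70 without wild type replicate 1. A further probe set of the gene, 104342_i_at, read 53.5 and 16.5 in Terc knockout testis and 76.9 and 81.3 in wild type testis, a difference of -1.41 that was not called. Without Ku86 the called probe set read 331.2 and 425.8 in double knockout testis and 2211.7 and 1300.6 in Ku86 knockout testis, a difference of -2.18. Every array labelled as lacking Terc was thus dimmer for Pla2g12a than every array labelled as carrying it. Of 9 tested genes of phospholipase A2 and arachidonate metabolism, 0 had an unadjusted p under 0.05 on the higher side and 2 did on the lower side. Over all probe sets these shares were 4.9% and 2.16%. The 2 were Pla2g12a itself and Pla2g6, a calcium-independent phospholipase (-0.49, and -0.19 without wild type replicate 1). After quantile normalization 1 member was lower at that level. The list's median was 0.32.

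The calls of both genes were close to the threshold. With either wild type array or Terc knockout replicate 1 left out, the limma adjusted p was between 0.153 and 0.212 for Hus1 and between 0.159 and 0.254 for Pla2g12a, while leaving out Terc knockout replicate 2 gave 0.534 for Hus1 and 0.0313 for Pla2g12a. Quantile normalization gave 0.198 for both genes in limma, and scan day as a block gave adjusted p values of 0.264 for Hus1 and 0.237 for Pla2g12a. Their differences kept their sign and ranged from 2.71 to 4.38 for Hus1 and from -2.87 to -1.94 for Pla2g12a over all settings tried.

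The stretch of 250 bases before the annotated start of each called gene is shown because these are the regulatory sequences nearest to the transcripts that passed the test. They come from RefSeq on build GRCm38.p6, at chr11:9011192-9011441 on the minus strand for Hus1 and at chr3:129880934-129881183 on the plus strand for Pla2g12a. Capitals mark the GC box GGGCGG and the motif CCAAT, searched on both strands, so that CCAAT appears as ATTGG where it lies on the other strand.
Hus1: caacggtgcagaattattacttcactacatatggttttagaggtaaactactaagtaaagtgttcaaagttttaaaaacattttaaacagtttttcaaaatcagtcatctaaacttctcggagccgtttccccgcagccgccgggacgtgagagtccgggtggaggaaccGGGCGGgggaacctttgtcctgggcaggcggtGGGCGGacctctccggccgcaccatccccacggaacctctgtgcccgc
Pla2g12a: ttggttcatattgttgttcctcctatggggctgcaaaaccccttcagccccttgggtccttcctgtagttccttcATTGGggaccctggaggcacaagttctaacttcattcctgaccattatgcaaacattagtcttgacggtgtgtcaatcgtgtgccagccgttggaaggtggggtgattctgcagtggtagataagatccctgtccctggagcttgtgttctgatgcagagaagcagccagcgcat
The Hus1 stretch held GGGCGG 2 times and no CCAAT, and the Pla2g12a stretch held CCAAT 1 time and no GGGCGG. Neither held TATAAA. Of 32851 promoter entries of the same length, 32.7% held GGGCGG, 33.8% held CCAAT and 12.4% held TATAAA on either strand. The GC content was 52.0% for Hus1 and 50.8% for Pla2g12a, against a median of 52.4% over all entries.

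**Figure D1:**
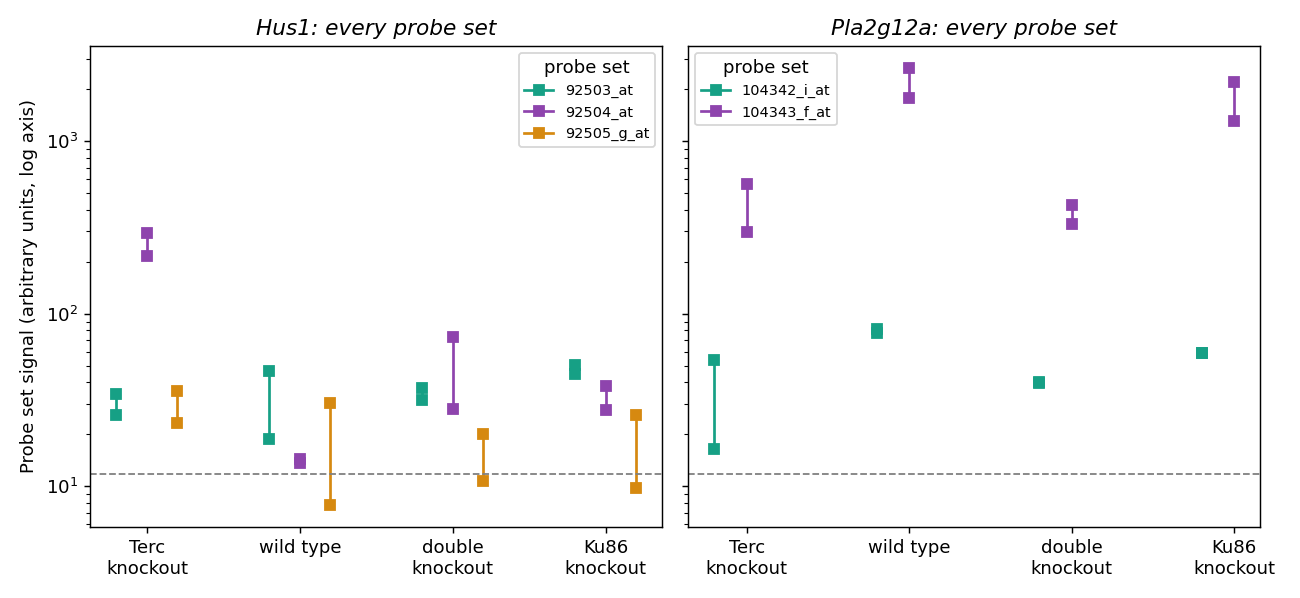
Signal (arbitrary units, log axis) of every probe set of Hus1 (left) and Pla2g12a (right) on each array, with 2 arrays per genotype joined by a line and the floor of 11.8 dashed. The called Hus1 probe set read 214.4 and 291.5 in Terc knockout testis, while no value of the other Hus1 probe sets exceeded 50.6 in any group, and the called Pla2g12a probe set was dimmer in both groups that lack Terc.

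In that plot of every probe set of the called genes, the bright Hus1 signal is seen for 1 of 3 probe sets and in 1 of 4 genotypes. Pla2g12a splits the genotypes by Terc, whether Ku86 is present or not.

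A further 11 genes had the smallest p on the higher side with groups that did not overlap, and none of them passed the adjustment. Ift46, an intraflagellar transport protein of cilia and sperm tails, read 349.8 and 142.1 in Terc knockout testis and 41.5 and 43.5 in wild type testis (2.39 ± 0.382, SE; limma adjusted p = 0.11). Its other, brighter probe set went the other way, with 667.2 and 527.0 in Terc knockout testis and 747.0 and 784.2 in wild type testis. Tmem129, which attaches ubiquitin to proteins leaving the endoplasmic reticulum for degradation, read 165.1 and 624.6 in Terc knockout testis and 36.1 and 56.2 in wild type testis (2.83), and its other probe set overlapped between the groups. Ndrg1, a protein induced by hypoxia and differentiation, read 122.0 and 167.2 in Terc knockout testis and 26.0 and 45.4 in wild type testis. Tk1, the thymidine kinase of S phase, read 187.9 and 207.1 in Terc knockout testis and 33.3 and 65.8 in wild type testis, while its other probe set overlapped. Mpp3, a membrane scaffold protein, read 53.9 and 72.1 in Terc knockout testis and 11.5 and 12.7 in wild type testis, at the floor. In each of these genes except Tmem129 the gap between groups was wider on the log2 scale than that within either group, but in Ift46, Tmem129, Tk1 and Ndrg1 a second probe set did not show it. That of Ndrg1 read 110.7 and 116.8 in Terc knockout testis and 59.2 and 104.8 in wild type testis. The remaining members were Itgb1, an integrin subunit that binds matrix (1.28), Elovl5, an elongase of polyunsaturated fatty acids (1.08), Prkacb, a catalytic subunit of protein kinase A (1.25), Blcap (1.75), Rmc1, a part of the complex that activates Rab7 on endosomes (1.62), and Dao, D-amino acid oxidase of peroxisomes (1.93).

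Besides Pla2g12a, 11 genes had the smallest p on the lower side, again without passing the adjustment. Epor, the erythropoietin receptor, read 28.9 and 48.4 in Terc knockout testis and 143.4 and 114.9 in wild type testis (-1.78). Cdkn1c, which encodes the cyclin-dependent kinase inhibitor p57, read 1086.1 and 731.3 in Terc knockout testis and 2205.5 and 1491.2 in wild type testis (-1.02, and -0.74 without wild type replicate 1). Cox6c, a subunit of cytochrome oxidase, read 3111.5 and 2602.7 in Terc knockout testis and 4446.2 and 4643.0 in wild type testis (-0.68). By the rule of selection none of the 24 overlapped between the groups. Cox6c was the brightest of the 24, although its dimmer second probe set overlapped (0.19). Sin3b, a scaffold of histone deacetylase complexes, read 35.3 and 33.6 in Terc knockout testis and 133.7 and 118.1 in wild type testis, but its far brighter second probe set overlapped, with 2044.4 and 1760.9 in Terc knockout testis and 2823.6 and 1744.6 in wild type testis. Scx, a transcription factor best known from tendon, read 25.7 and 84.4 in Terc knockout testis and 420.6 and 193.6 in wild type testis (-2.62). The others were Lhx1, a homeodomain transcription factor (89.1 and 108.8 in Terc knockout testis, 197.7 and 196.0 in wild type testis), Pex14, a docking protein for import into peroxisomes (-1.65 on 1 of 3 probe sets), the Golgi protein gene Golph3l (-1.69), Jpt1 (-0.72), R3hcc1 (-0.96) and the noncoding locus Gt(ROSA)26Sor (-1.10). The 22 uncalled genes had limma adjusted p values between 0.11 and 0.672.

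**Figure D2:**
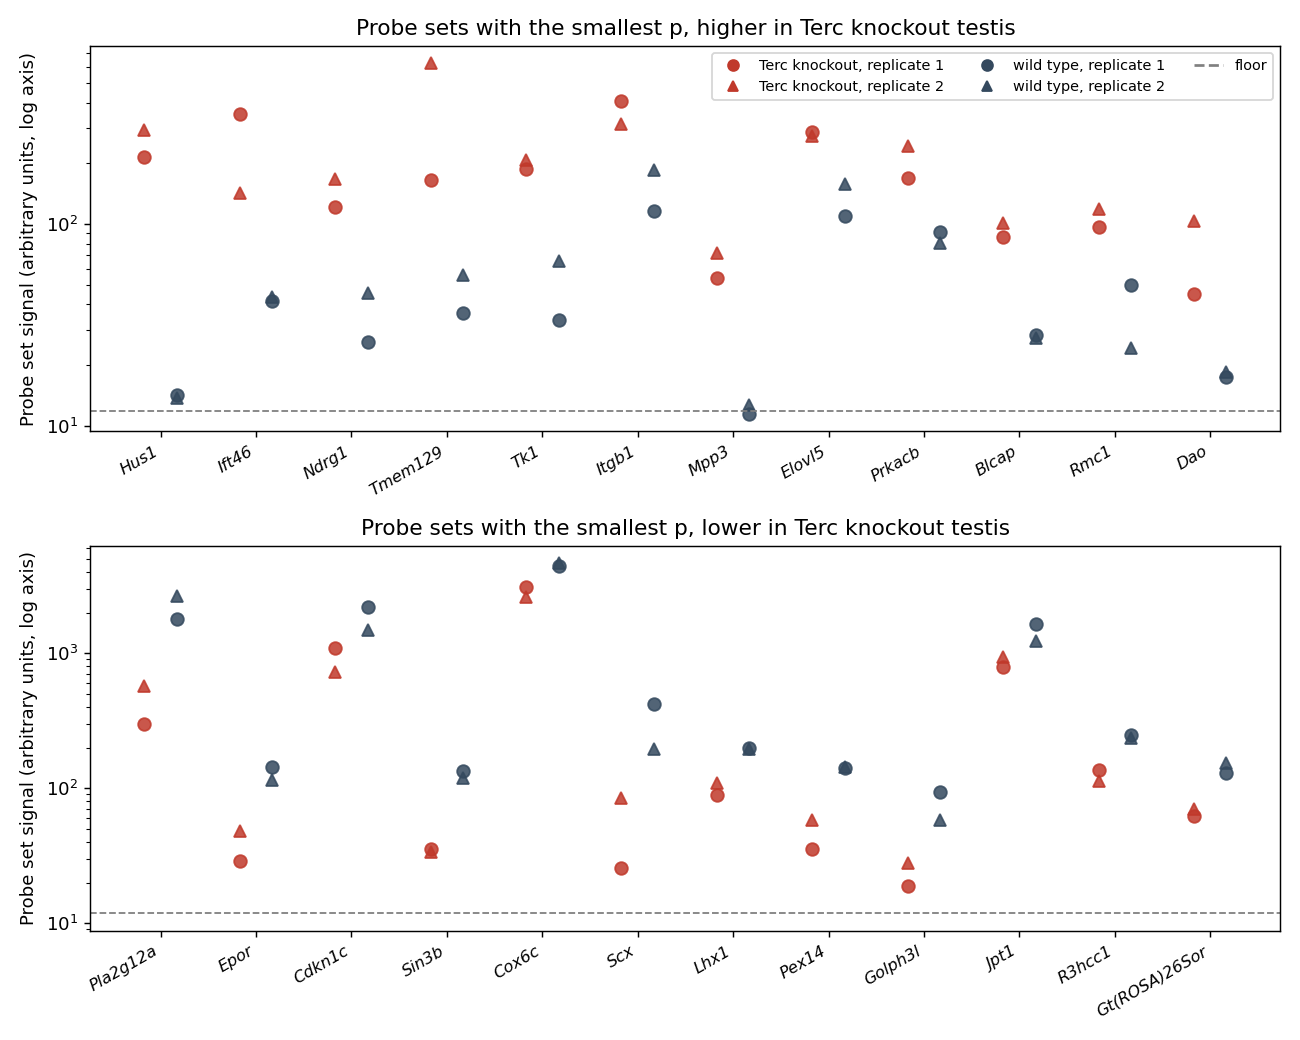
Signal (arbitrary units, log axis) of the 12 probe sets with the smallest p on the higher side (top) and on the lower side (bottom), with 1 marker per array, Terc knockout in red and wild type in dark blue, and the floor of 11.8 dashed. The groups do not overlap for any of the 24, because the rule asked for that, and Hus1 and Mpp3 have wild type values next to the floor.

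The plot of single arrays shows that the brightest signals are in the lower set. Pla2g12a, Cdkn1c, Cox6c and Jpt1 had wild type signals of 1222.8 or more, while the highest value of the higher set, of Tmem129 in a Terc knockout array, was 624.6.

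Of 872 genes with 2 or more tested probe sets, 497 had all of them on 1 side of 0, and 122 had at least 1 at an unadjusted p under 0.05. In 5 genes at least 2 probe sets were higher and none lower at that level, and in 5 at least 2 were lower and none higher. The higher genes were Itgb1, Hif1a, the hypoxia-inducible transcription factor (1.24 and 1.05), Rgs16, a regulator of G protein signalling (0.80 and 1.61), Pdlim1, a cytoskeletal adaptor of muscle and other cells (0.89 and 0.67), and Dpep3, a membrane dipeptidase of germ cells (0.83 and 0.54). Another, brighter Dpep3 probe set differed by 0.03 and overlapped. The second Rgs16 probe set passed the filter on dim signals, a mean on the log2 scale, only through the Terc knockout arrays (67.2 and 78.8). In wild type testis that probe set read 17.5 and 32.3, so it adds little to the first. Without wild type replicate 1 the Hif1a probe sets differed by 0.75 and 0.40, the dimmer Itgb1 probe set by 0.83 against 1.61, and the second Dpep3 probe set by 0.26. The lower genes were Pla2g12a, Pithd1 (-0.62 and -0.71), Fbxw5, a ubiquitin ligase subunit (-0.62 and -0.40), Pcsk4, a protease that matures sperm surface proteins (-0.84 and -0.57), and Abhd8 (-0.73 and -0.57). In the last 4 genes wild type replicate 1 was the brightest array: Abhd8 read 1393.0 and 1407.8 in Terc knockout testis and 3598.0 and 1506.4 in wild type testis. Without wild type replicate 1 the first probe sets of these 4 genes differed by -0.46, -0.32, -0.42 and -0.10.

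Genes that act on telomeres and on DNA damage were counted at an unadjusted p under 0.05, beside 4.9% of all probe sets higher and 2.16% lower. In lists this short a count of 0 or 1 says little about the list. Of 10 tested telomerase and telomere-binding genes, 0 had an unadjusted p under 0.05 in either direction. Tert, the protein that Terc works with, read 172.0 and 114.5 in Terc knockout testis and 91.7 and 96.8 in wild type testis (0.58, unadjusted p = 0.0948 in limma). Its groups did not overlap, while Terf1 (0.31) and Terf2 (0.04), which bind telomere repeats, and Tinf2 (0.10), which joins them, differed by less than their standard errors. Among 11 tested genes of the checkpoint clamp and damage kinases Hus1 was the 1 member at an unadjusted p under 0.05, and the list's median was -0.15. Rad17, which loads the clamp that Hus1 is part of, read 256.2 and 162.5 in Terc knockout testis and 256.7 and 301.6 in wild type testis (-0.45). The kinases Chek1 (0.36) and Chek2 (0.27), which relay damage signals, stood on the higher side, and Nbn, of the complex that senses breaks, on the lower side (-0.77), none at an unadjusted p under 0.05.

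Of the 8 tested p53 targets, 1 had an unadjusted p under 0.05, Sesn1, a stress-induced regulator of growth signalling (0.74). Of all probe sets, 4.9% were higher and 2.16% lower at that level. Cdkn1a, which encodes the p53-induced inhibitor p21, read 167.3 and 197.8 in Terc knockout testis and 194.4 and 149.6 in wild type testis, and Mdm2, which degrades p53, read 523.1 and 352.6 in Terc knockout testis and 459.2 and 473.4 in wild type testis. Both overlapped. Non-homologous end joining had 5 tested members, of which Prkdc, the DNA-dependent kinase that Ku recruits, read 71.7 and 89.7 in Terc knockout testis and 33.0 and 43.0 in wild type testis (1.09). Parp1, a sensor of strand breaks, read 173.7 and 149.3 in Terc knockout testis and 102.3 and 96.5 in wild type testis (0.70). Both had an unadjusted p under 0.05 and neither was called, and without wild type replicate 1 0 members of this list were at that level. Homologous recombination (9 members, median 0.19) and mismatch and base excision repair (12 members, median 0.01) had 0 members at an unadjusted p under 0.05.

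Cdkn1c was the 1 of 6 tested cyclin-dependent kinase inhibitors at an unadjusted p under 0.05, where 4.9% of all probe sets were higher and 2.16% lower. Cdkn2a, a senescence gene, overlapped between groups with 53.9 and 24.7 in Terc knockout testis and 44.8 and 43.8 in wild type testis. Of 21 cyclins and mitotic or meiotic kinases, Ccna2 (0.69), a cyclin of S phase, and Plk4 (0.74), a kinase of centriole duplication, stood higher and Ccnd3 (-0.46), a cyclin of the start of the cycle, lower at that level. Tk1 was the 1 of 20 replication genes, with a list median of 0.07. Of 16 apoptosis regulators, Cycs, the cytochrome c whose release from mitochondria activates caspases, was the 1 at that level, with 74.5 and 65.7 in Terc knockout testis and 32.8 and 36.5 in wild type testis. Bcl2l1, a survival gene, read 855.6 and 1016.4 in Terc knockout testis and 1811.5 and 976.0 in wild type testis, and the groups overlapped.

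Sertoli cell genes stood on the higher side more evenly than most lists. Of 21 tested members 19 were above 0, beside 61.1% of all probe sets. In 14 members both Terc knockout arrays were above both wild type arrays, against 0 below, where all probe sets gave 25.5% and 12.2%. Counted at an unadjusted p under 0.05, 5 members were higher and 0 lower, beside 4.9% and 2.16% of all probe sets, and none was called. The median was 0.56, which is 0.47 above that of all genes, against 0.43 with wild type replicate 1 left out and 0.41 after quantile normalization. The summed signal of the list was 4905 and 4381 in Terc knockout testis and 3269 and 3309 in wild type testis. Aard, a testis protein of Sertoli cells, read 706.2 and 704.6 in Terc knockout testis and 519.6 and 442.5 in wild type testis. Fshr, the receptor through which follicle-stimulating hormone acts, read 331.6 and 451.2 in Terc knockout testis and 201.7 and 315.6 in wild type testis. Dhh, the signal that Sertoli cells send to Leydig and peritubular cells, read 315.3 and 354.5 in Terc knockout testis and 201.2 and 266.6 in wild type testis. The groups did not overlap in these members, although for Fshr and Dhh the gap was smaller than the spread within the wild type pair, and a second Dhh probe set overlapped (0.25). Gata1, a transcription factor of Sertoli and red cells, and Gja1, the gap junction protein connexin 43, completed the 5 with differences of 0.75 and 1.00, but a second Gata1 probe set overlapped (-0.36). Inha, the inhibin alpha subunit, overlapped with 272.3 and 110.4 in Terc knockout testis and 269.0 and 150.8 in wild type testis. At that level 2 members were higher without wild type replicate 1, and 1 was after quantile normalization.

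Genes of peritubular muscle, vessels and matrix had 24 tested members. In 17 of them both Terc knockout arrays lay above both wild type arrays and in 1 below, beside 25.5% and 12.2% of all probe sets. At an unadjusted p under 0.05, 8 were higher and 0 lower, beside 4.9% and 2.16% of all probe sets, and none was called. After quantile normalization 5 were higher and 1 lower at that level. The median was 0.56, which is 0.46 above all genes. It was 0.57 without wild type replicate 1 and 0.42 after quantile normalization. The summed signal was 4151 and 4935 in Terc knockout testis and 3033 and 3195 in wild type testis. Timp2, an inhibitor of matrix proteases, read 88.4 and 118.8 in Terc knockout testis and 19.7 and 50.2 in wild type testis (1.70). Mylk, the kinase that triggers smooth muscle contraction, read 324.2 and 327.0 in Terc knockout testis and 166.7 and 195.8 in wild type testis (0.85). Myh11, smooth muscle myosin, read 65.4 and 30.4 in Terc knockout testis and 4.6 and 9.8 in wild type testis. Both wild type values were under the floor and were set to it, which gives a 3.78-fold difference (1.918 on the log2 scale, and 1.735 after quantile normalization). Acta2, smooth muscle actin, read 297.2 and 121.9 in Terc knockout testis and 81.1 and 91.1 in wild type testis (1.15). Timp3 (1.97), Lamb1 (1.10), Sparc (1.06) and Timp1 (0.67), which are matrix proteins or their protectors, made up the 8. Timp3 read 82.6 and 86.6 in Terc knockout testis and 39.6 and 9.9 in wild type testis, with 9.9 under the floor. Its difference was 2.841 without wild type replicate 1 and 1.095 without wild type replicate 2. The collagen gene Col1a2 read 801.4 and 1226.3 in Terc knockout testis and 731.6 and 790.9 in wild type testis (0.38), and Pecam1, an endothelial adhesion protein, stood on the lower side (-1.02). In RNA of a tissue a different share of cells of a type and a different amount of RNA per cell cannot be told apart, here and in the next paragraph.

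The lists of meiotic and later germ cells had medians nearer to that of all genes. The 7 tested genes of spermatogonia and early germ cells had a median of 0.28, which was 0.55 without wild type replicate 2, 0.50 without Terc knockout replicate 2 and 0.14 without Terc knockout replicate 1, and 1 member at an unadjusted p under 0.05, the surface protein gene Cd9 (1.35). The 8 genes of meiosis and the synaptonemal complex had a median of -0.07. Sycp1, a structural protein of that complex, overlapped with 465.6 and 357.7 in Terc knockout testis and 315.6 and 530.6 in wild type testis. The 20 genes of round spermatids and the acrosome had a median of -0.04, and 8 of them lay with both Terc knockout arrays below both wild type arrays, against 1 above, where 12.2% and 25.5% of all probe sets did so. Tssk2, a spermatid kinase, read 4001.4 and 3650.7 in Terc knockout testis and 5735.9 and 4230.3 in wild type testis. The 15 protamine, transition protein and late spermatid genes had a median of -0.03, and Tnp2, a transition protein, read 18561.5 and 17815.6 in Terc knockout testis and 17028.5 and 18342.1 in wild type testis. These 3 lists together had 0 members at an unadjusted p under 0.05 in either direction. Among the other cells of the tissue, 12 Leydig cell genes had a median of 0.28 and 0 members at that level. The 13 macrophage and antigen presentation genes had a median of 0.02 and 1 member at that level, H2-K1, a class I antigen-presenting molecule (-0.54). Other tested probe sets of H2-K1 overlapped (-0.746 and -0.195). Of 11 erythroid genes 3 were higher and 1 lower at that level, beside 4.9% and 2.16% of all probe sets. The higher ones were Gfi1b (2.22) and Gata1, transcription factors, and Ank1, a membrane skeleton protein (0.90), and the lower one was Epor. Gfi1b passed the filter on dim signals only through the Terc knockout arrays (68.4 and 110.2), with 14.8 and 23.6 in wild type testis. A second tested Ank1 probe set overlapped (0.555). The globin gene Hba-a1 overlapped with 1492.2 and 3190.1 in Terc knockout testis and 3010.3 and 2205.2 in wild type testis.

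**Figure D3:**
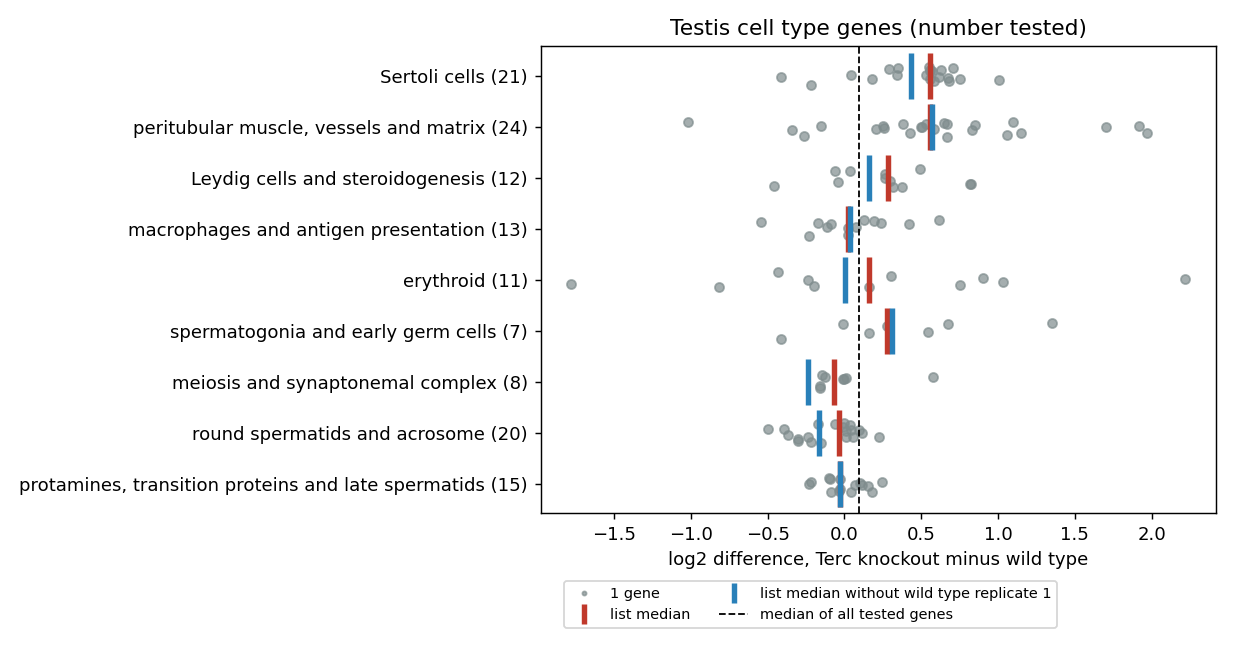
Log2 difference, Terc knockout minus wild type, of each tested gene (grey points) in 9 lists of testis cell types, with the number tested in parentheses, the list median in red, the median without wild type replicate 1 in blue and the median of all tested genes dashed. Sertoli and peritubular lists have medians of 0.56, while the 3 lists of meiotic and later germ cells lie between -0.07 and -0.03.

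In the plot by cell type the medians of the Sertoli and peritubular lists lie to the right of the dashed line and those of the meiotic and later germ cells to its left, while single genes of these lists fall on both sides. For double knockout minus Ku86 knockout the medians were 0.65 for the Sertoli list, 0.44 for the peritubular list and 0.43 for spermatogonia and early germ cells, where the median of all genes was -0.002 on the log2 scale. How far the balance of cells in the samples bears on any other gene here was not tested.

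Among other pathways, counts at an unadjusted p under 0.05 stand against 4.9% of all probe sets higher and 2.16% lower. Of 11 insulin-like growth factor genes 3 were higher, and 1 was without wild type replicate 1, with a list median of 0.58 (0.25 after quantile normalization). They were Igf2, a growth factor (322.7 and 287.7 in Terc knockout testis, 151.1 and 209.0 in wild type testis), Igf2r, the receptor that clears it (1.21), and Foxo3, a transcription factor that insulin signalling restrains (1.07). Of 5 interferon response genes 2 were higher, Tap1, the peptide transporter of antigen presentation (1.66), and Ifitm3, an antiviral membrane protein (0.71). That list's median was 0.63, between 0.37 and 0.88 with 1 array left out, and Tap1 differed by 0.67 without wild type replicate 2 and by 2.65 without wild type replicate 1. After quantile normalization 0 of the 5 were at that level. Of 34 oxidative phosphorylation genes 2 were lower, Cox6c and Ndufb8, a complex I subunit (-0.40), and of 30 proteasome genes 2 were lower, the catalytic subunits Psmb6 (-0.56) and Psmb5 (-0.73). A second, dimmer Psmb5 probe set stood on the other side, with 160.7 and 287.1 in Terc knockout testis and 95.3 and 121.0 in wild type testis. Heat shock and unfolded protein genes had 2 of 22 higher, Pdia4, a folding enzyme (1.58), and Hspa8, a chaperone (0.81). Without wild type replicate 1 that count was 0, with Pdia4 at 0.43, and the count of lower genes was 1 for oxidative phosphorylation and 0 for the proteasome. Cytosolic ribosomal proteins had 1 of 25, Rpl22 (1.74), immediate early genes had 1 of 13, Klf4, a zinc finger transcription factor (-0.58), and antioxidant enzymes had 0 of 18.

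The same loss in mice without Ku86 was measured on the other 4 arrays, as double knockout minus Ku86 knockout. In this contrast limma called 0 of 7282 probe sets (0.0%; smallest adjusted p 0.128), with 167 (2.29%) higher and 78 (1.07%) lower at an unadjusted p under 0.05, 245 in all. Across all tested probe sets the differences in the presence and in the absence of Ku86 had a correlation of -0.032. These contrasts share no arrays, but they share probes and the estimate of spread. The test of their difference, the interaction, also called 0 probe sets (0.0%; smallest adjusted p 0.124), with 367 at an unadjusted p under 0.05. Of the 24 named probe sets of smallest p, 12 had the same sign without Ku86, and 3 of them had an unadjusted p under 0.05 there too. These were Pla2g12a, Itgb1 and Blcap.

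Blcap showed the most even values over both backgrounds. It read 85.8 and 101.5 in Terc knockout testis and 28.3 and 27.3 in wild type testis, and without Ku86 it read 72.7 and 92.6 in double knockout testis and 26.2 and 22.8 in Ku86 knockout testis. Both differences were 1.75, and every array labelled as lacking Terc was above every array labelled as carrying it. All arrays labelled as carrying Terc read under the filter level of 38.1, so the probe set was tested only through the others. Blcap was named because its groups did not overlap with Ku86 present, and was singled out here by its p in both backgrounds. Itgb1 read 406.1 and 312.0 in Terc knockout testis and 116.1 and 185.3 in wild type testis, and 609.2 and 550.4 in double knockout testis and 275.5 and 342.8 in Ku86 knockout testis. Its groups did not overlap within either background, although Terc knockout replicate 2 was dimmer than Ku86 knockout replicate 2. Hus1, by contrast, differed by 0.48 without Ku86 (interaction unadjusted p = 0.000537 in limma, adjusted p = 0.792). Tmem129 and Scx had opposite signs, with 133.1 and 113.8 in double knockout testis and 662.7 and 426.4 in Ku86 knockout testis for Tmem129, and 200.1 and 71.4 in double knockout testis and 22.8 and 33.4 in Ku86 knockout testis for Scx.

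Over all tested probe sets, 18 were higher and 2 lower at an unadjusted p under 0.05 in both backgrounds, and 18 had opposite signs at that level. The higher ones included Ppp1r15a, which restarts translation after stress (1.28 with Ku86 and 1.57 without), Rbbp7, a histone-binding protein of chromatin complexes (0.91 and 0.72), Myo7a, an unconventional myosin (0.73 and 0.70), and Cpe, a peptide-processing enzyme (1.18 and 1.54). Ppp1r15a read 174.1 and 125.5 in Terc knockout testis and 80.9 and 45.9 in wild type testis, and 94.6 and 158.5 in double knockout testis and 45.5 and 37.6 in Ku86 knockout testis. Sparc and Gja1, which belong to the somatic lists, were in this set, as were Tpm1, a tropomyosin, Gas6, a ligand of receptors for cell clearance (0.64 and 0.60), Hmgb3, Tcf12, App, Pgrmc1, Snx4, Adgrl1 and Ifitm3. None of the 20 except Pla2g12a was called in either background.

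**Figure D4:**
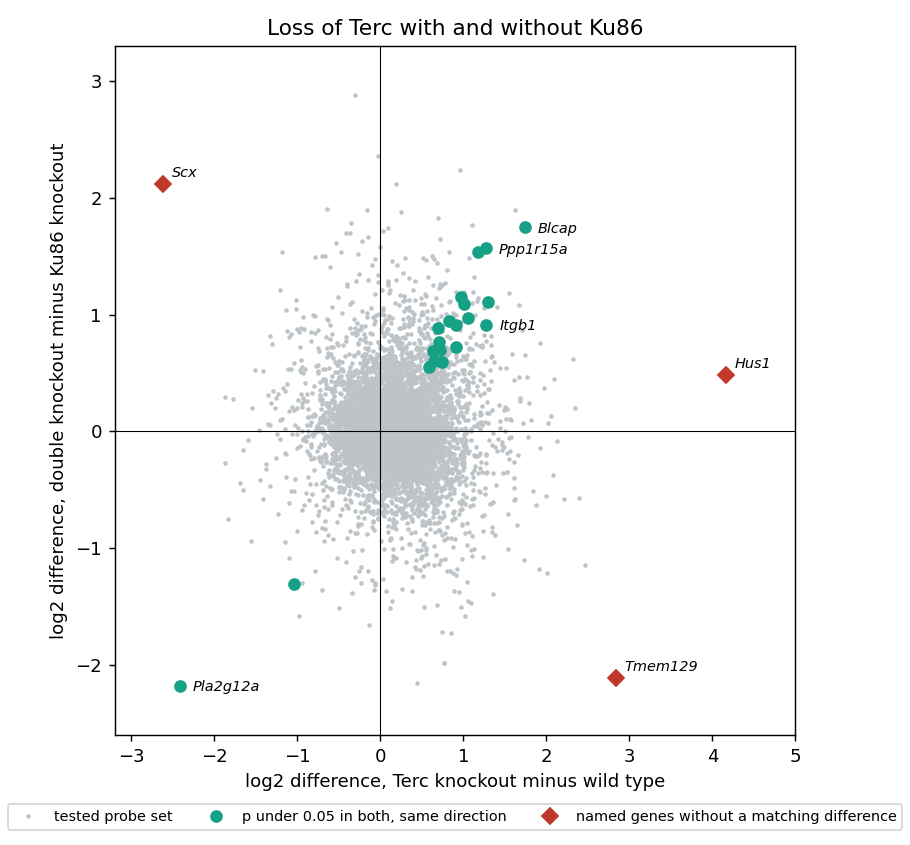
Log2 difference of each tested probe set for the loss of Terc with Ku86 present (x axis, Terc knockout minus wild type) and without Ku86 (y axis, double knockout minus Ku86 knockout). The 20 probe sets at an unadjusted p under 0.05 with 1 sign in both are green, and Hus1, Tmem129 and Scx, which differ in 1 background or take opposite signs, are red.

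The plot of both backgrounds shows a round cloud with no slope. Pla2g12a lies alone at its lower left, and Hus1 lies far to the right at a height of 0.48.

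Genes were also described by their position on the chromosomes. Terc lies on chromosome 3, as does Pla2g12a, which is 256 protein-coding genes away from it in the RefSeq order. Of the 100 nearest protein-coding genes, 50 on each side, 38 were tested. At the unadjusted level of 0.05, 2 of them were higher, Ctsk, a matrix protease (0.81), and Notch2, a signalling receptor (0.91), and 1 was lower, Golph3l, 32 genes away. These counts are near the shares over all probe sets, 4.9% and 2.16%, and were 0 and 1 after quantile normalization. Golph3l read 18.9 and 27.8 in Terc knockout testis and 93.7 and 58.4 in wild type testis, while without Ku86 it read 116.5 and 54.2 in double knockout testis and 109.9 and 105.8 in Ku86 knockout testis. The list's median was 0.18, or 0.09 above all genes, and -0.07 after quantile normalization. Genes at the distal ends of chromosomes, the last 20 of each, had 90 tested members, of which 10 were higher and 1 lower at that level, beside 4.9% and 2.16% of all probe sets. Their median was 0.16, which became 0.06, with 4 members higher, when wild type replicate 1 was left out. After quantile normalization 5 were higher and 2 lower, and the median was 0.0. Tnfrsf18, a receptor of T cells (1.62), and Xcr1, a chemokine receptor (0.98), were among the 10.

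Genes of the X chromosome had the highest median of any chromosome, a pattern noticed after the values had been seen and given as a description. Of 115 tested genes 95 were above 0, 12 were higher and 0 lower at an unadjusted p under 0.05, and in 51 both Terc knockout arrays lay above both wild type arrays, against 3 below. Over all probe sets these shares were 4.9% and 2.16% by p, and 25.5% and 12.2% by arrays. After quantile normalization 7 of the 115 were higher and 0 lower by p. Clcn5, 1 of the 12, read 46.8 and 69.2 in Terc knockout testis and 9.0 and 32.9 in wild type testis. Its value of 9.0 was under the floor, and it passed the filter on dim signals only through the Terc knockout arrays. The median was 0.31, while those of the other chromosomes lay between -0.02 (chromosome 17) and 0.20 (chromosome 1). It was 0.20 without wild type replicate 1, 0.43 without wild type replicate 2, 0.11 after quantile normalization and 0.21 for double knockout minus Ku86 knockout. Rbbp7 read 557.7 and 386.2 in Terc knockout testis and 223.5 and 272.0 in wild type testis. Timp1, an inhibitor of matrix proteases, read 344.1 and 454.5 in Terc knockout testis and 274.9 and 224.8 in wild type testis, and Plac1, best known from placenta, read 135.7 and 238.1 in Terc knockout testis and 108.5 and 76.2 in wild type testis. Of the 12, Gata1 and Timp1 belong to the somatic lists as well, and the part that the balance of cell types has in this median was not tested.

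**Figure D5:**
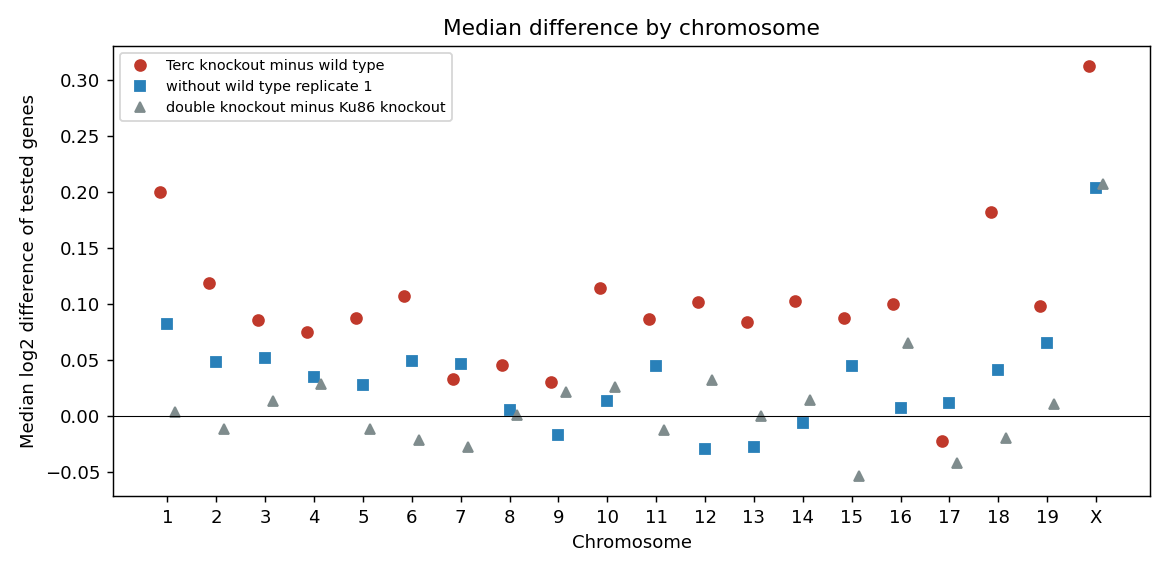
Median log2 difference of the tested genes of each chromosome, for Terc knockout minus wild type (red), the same without wild type replicate 1 (blue) and double knockout minus Ku86 knockout (grey). Chromosome X has the highest median in all 3, at 0.31, 0.20 and 0.21.

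In the plot by chromosome the red medians of the autosomes are mostly near 0.1, the level of the median over all genes. The blue and grey medians of the autosomes lie nearer to 0, and chromosome 3, which carries Terc, is within the range of the others at 0.09.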

How the data were processed

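The deposited table holds 1 intensity per probe set and array on a linear scale. The authors had scaled the arrays: their trimmed means, without the top and bottom 2%, lay between 198.78 and 199.07, and the values were used as deposited. Their software was not given in the sources used here. Between 15.56% and 25.98% of probe sets per array were at or under the floor. Signals under the pooled 20th percentile (11.8) were set to that value before the log2 step. Controls aside there were 12422 probe sets, and 5140 were left out because their mean lay under the pooled 40th percentile (38.1), leaving 7282, of which 6537 name a single gene, in 5530 genes. The small number of arrays limits precision.

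Limma 3.58.1 in R 4.3.3 (lmFit, eBayes with a trend) was fitted to all 8 arrays with 1 mean per genotype, since 2 arrays a side give little estimate of spread. Tests were two-sided with Benjamini-Hochberg adjustment over 7282 probe sets, and the pipeline was tested on simulated data. Of 12488 probe sets, 10855 had 1 symbol, 396 several and 1237 none in the platform annotation.

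Named were Xrcc5 and Terc, then probe sets of a single gene whose groups stayed apart (the called ones, and up to 12 in each direction by p under 0.01), then genes with at least 2 probe sets agreeing, then up to 5 members per list at p under 0.05. Gene lists used the brightest tested probe set of each gene and were described, not tested. The shares given beside them are over all probe sets and not over genes. With 1 probe set per gene, 252 of 5530 genes were higher and 121 lower at an unadjusted p under 0.05. Of the 5530, 3307 were above 0, and both Terc knockout arrays lay above both wild type arrays for 1353 and below both for 715. The members and lists were chosen with earlier results of these data known. Further list members were named for their role, and chromosome X genes and those at p under 0.05 in both backgrounds were picked, all after their values were seen. Gene order came from RefSeq on GRCm38.p6. Deviations of same-numbered arrays from their group means correlated at 0.046 between Terc knockout and wild type and at 0.013 to 0.254 over all pairs of groups, so the numbers were not taken to pair samples.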

Additional observations from a re-analysis of the deposited data

How the results depend on the processing

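The count of called probe sets, 2, was 0 under each of these: quantile normalization, a floor at the 5th percentile, a filter at the 60th percentile, a fit without the variance trend, and the experiment number as a replicate block. It was 9 with no filter, 1 with scan day as a block and 17 within scan day 2 alone, a fit with only the Terc knockout pair to set the spread. It ran from 0 to 4 with 1 array left out, with 0 without either wild type array, 1 without Terc knockout replicate 1 and 4 without replicate 2. At an unadjusted p under 0.05, the 357 higher probe sets became 173 (quantile), 176 (median centring), 637 (no filter), 206 (filter at the 60th percentile), 228 (scan day block) and 203 (scan day 2), and with 1 array left out 121 (Terc knockout replicate 2) to 625 (wild type replicate 2), with 194 without wild type replicate 1. The 157 lower ones became 382 (median centring), 90 (no trend), 91 (scan day block) and 82 (scan day 2), and with 1 array left out 55 (wild type replicate 1) to 400 (wild type replicate 2), with 250 without Terc knockout replicate 1. Under the replicate block they were 507 and 227. The causes were not tested. Neither Hus1 nor Pla2g12a was among the 9 called with no filter, where their limma adjusted p values were 0.282 and 0.472. Neither was called with scan day as a block or without Terc knockout replicate 1, so the probe set called there was another. The counts of 0 without Ku86 and for the interaction were 0 in every alternative run for them. Xrcc5 (-1.03) ranged from -2.326 without Terc knockout replicate 1 to 0.267 without replicate 2. The brightest Dpep3 probe set (0.025) differed by -0.125 after median centring, by -0.038 under the scan day block, in day 2 alone or without wild type replicate 1, and by -0.048 to 0.098 without a Terc knockout replicate. Of the other values, 2217 kept direction and side of the threshold or stayed within the spread, 91 moved further, 20 lost and 6 gained a call. The 20 lost were all calls of Hus1 or Pla2g12a. Under the stricter filter 33 of 84 named probe sets, Hus1 included, and the epididymis gene have no value. Without wild type replicate 1, 25 of the 84 moved by over 1.5 times, without wild type replicate 2 17, and without Terc knockout replicates 1 and 2 in turn 8 and 12. With no transcript of Terc on the array and 2 arrays a side, small differences were beyond detection.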
